A study of Mus musculus and Homo sapiens with 4 samples.

Results

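The unfolded protein and ATF4 response genes are transcripts that cells raise when proteins misfold in the endoplasmic reticulum (ER) or when amino acids run short. A list of 38 such genes was followed in 2 tumour cell lines with lowered Merm1, and each gene was found by its symbol in the platform annotation, whatever its values. On the mouse arrays 37 of the 38 were named, among 18193 named genes, and on the human arrays all 38 were named, among 19773. The lines were LM8, from a mouse osteosarcoma, and A375M, from a human melanoma. Each was stably infected with a pSIREN-RetroQ retrovirus that carried either a control insert or a short hairpin against Merm1 (Wbscr22, now BUD23), a methyltransferase of ribosomal RNA. The 4 groups, namely LM8 control, LM8 knock-down, A375M control and A375M knock-down, held 1 Affymetrix 3' array each, and both groups of a line carried the retroviral backbone. LM8 was grown in MEM and A375M in DMEM. Whether an infected line was a clone or a pool is not stated in the labels.

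Misfolded protein in the ER is sensed by IRE1, PERK and ATF6. IRE1 splices the mRNA of XBP1, ATF6 is cut to release a transcription factor, and both factors raise chaperones and the machinery of ER-associated degradation (ERAD). PERK, like the amino acid sensor GCN2, phosphorylates the initiation factor eIF2alpha, which slows translation but favours that of ATF4, and ATF4 then raises genes for amino acid synthesis, import and further stress signalling. In bone, ATF4 is known for supporting the amino acid supply of matrix-secreting osteoblasts.

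Values were log2 RMA expression values per probe set, the group of probes that reads 1 transcript. Every difference is knock-down minus control within a line, and paired readings name the control first, so a difference of -1 would be a halving. Each gene was represented by the brightest of its probe sets that carry 1 symbol, and was kept when it exceeded the array median in at least 1 array. All 37 and 38 genes were kept, among 11646 kept genes in LM8 and 13244 in A375M. With 1 array per group there is no spread between replicates, no test and no p-value within a line, and precision is limited by this number of arrays. A lower value can be fewer expressing cells or less RNA per cell, which cannot be told apart. To gauge technical scatter only, the SD between kept probe sets of 1 gene was taken, with medians of 0.071 (25 listed genes, LM8) and 0.070 (20, A375M), and of 0.12 and 0.071 over all genes with several.

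The target checked the labels, with Bud23 at 22.9% of the control level in LM8 and BUD23 at 20.04% in A375M on its bright probe set. Osteoblast markers read above the array median in both LM8 arrays for 7 of 7 named genes, and melanocyte markers in both A375M arrays for 7 of 7. In A375M MLANA read 4.84 and 5.19, close to the array medians of 4.64 and 4.67. The markers separate the lines only in part. Melanocyte markers were above the median in both LM8 arrays for 3 of 8, and osteoblast markers in both A375M arrays for 6 of 9. Leukocyte markers did so for 2 of 6 and 3 of 6, with PTPRC below the median in all 4 arrays and summed values of 29.5 and 29.1 in LM8 (control, knock-down) and 28.6 and 28.3 in A375M, and epithelial markers for 1 of 6 and 2 of 6. The distributions of the arrays of a line were nearly equal, so a shift of all transcripts would not be seen. The A375M arrays held the same value for 45.4% of all probe sets, against 0.705% in LM8.

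Promoters of the mouse genes are given before the values, because some carry the elements through which these factors act. RefSeq windows on GRCm38.p6, from 250 bases before to 50 after the annotated start, were matched by symbol for 34 of the 38 genes. They were searched on both strands for the ER stress element ERSE, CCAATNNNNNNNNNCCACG, which ATF6 and spliced XBP1 use. The other patterns were its variant ERSE-II, ATTGGNCCACG, and the C/EBP-ATF response element CARE, TGATGNAA, which ATF4 uses. The patterns do not overlap in the matches found. ERSE occurred in 39 of all 32851 windows, or 0.119%, and in 6 of the 10 matched chaperone and folding genes, namely Hspa5, Hsp90b1, Calr, Pdia6, Dnajc3 and Creld2. It occurred in none of the other 24 matched genes. ERSE-II occurred in 12 windows, or 0.0365%, and among these genes only in Herpud1. CARE occurred in 1304 windows, or 3.97%, and in 9 of the 34 genes, namely Herpud1, Atf3, Nupr1, Asns, Pycr1, Slc7a11, Trib3, Chac1 and Vldlr, none of them a chaperone or folding gene. Of the 9 matched amino acid genes 3 held it. A match describes the letters and is no evidence of binding.

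The first stretches carry ERSE in capitals with the flanking bases, 5' to 3' on the strand of the gene, and show the fixed spacing of the paired boxes in either orientation. They are Hspa5 at chr2:34772005-34772063 (+), Pdia6 at chr12:17266471-17266529 (+), Dnajc3 at chr14:118937807-118937865 (+) and Creld2 at chr15:88819500-88819558 (+, element reversed).
Hspa5: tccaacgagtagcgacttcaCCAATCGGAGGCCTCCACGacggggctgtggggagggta
Pdia6: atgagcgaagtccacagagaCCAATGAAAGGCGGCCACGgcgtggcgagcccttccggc
Dnajc3: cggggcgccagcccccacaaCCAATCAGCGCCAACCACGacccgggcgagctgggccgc
Creld2: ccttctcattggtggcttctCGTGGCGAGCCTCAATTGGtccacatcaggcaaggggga

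Hsp90b1 at chr10:86705513-86705676 (-) was the only gene of the set with 2 ERSE matches, at positions -212 to -194 and, reversed, -107 to -89 from the annotated start.
Hsp90b1: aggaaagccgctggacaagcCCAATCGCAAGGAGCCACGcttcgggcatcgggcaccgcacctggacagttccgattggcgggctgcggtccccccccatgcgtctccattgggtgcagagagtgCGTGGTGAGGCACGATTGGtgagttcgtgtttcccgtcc

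The next stretches carry CARE in capitals and belong to the amino acid and stress genes whose values are described next. They are Nupr1 at chr7:126625553-126625600 (-), Chac1 at chr2:119351029-119351076 (+), Atf3 at chr1:191183416-191183463 (-), Slc7a11 at chr3:50443633-50443699 (-) and Asns at chr6:7693210-7693252 (-). In Nupr1, Chac1 and Atf3 the element is reversed, and Slc7a11 holds 1 element in each orientation.
Nupr1: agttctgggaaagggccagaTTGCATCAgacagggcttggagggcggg
Chac1: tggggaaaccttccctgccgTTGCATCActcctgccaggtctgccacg
Atf3: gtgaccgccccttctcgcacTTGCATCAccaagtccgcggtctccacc
Slc7a11: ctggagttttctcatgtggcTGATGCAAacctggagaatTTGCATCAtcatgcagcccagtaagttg
Asns: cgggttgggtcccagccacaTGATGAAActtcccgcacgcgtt

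**Figure D1:**
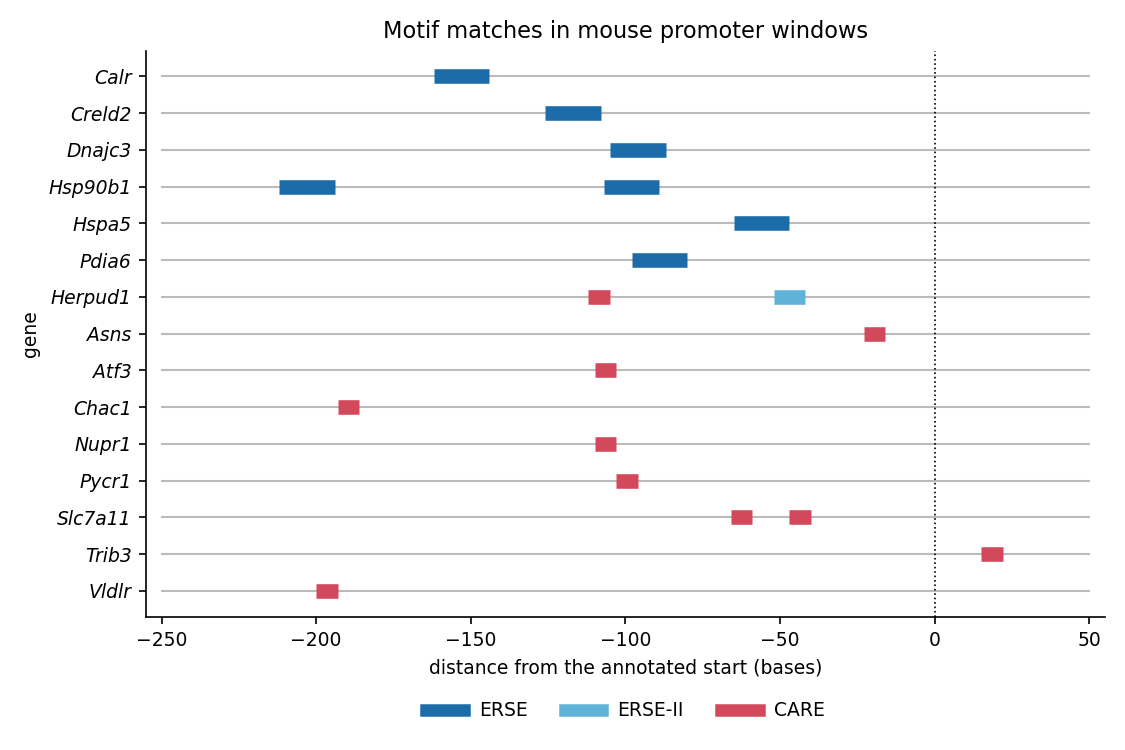
Positions of the ERSE, ERSE-II and CARE matches (coloured bars) in mouse promoter windows from 250 bases before to 50 bases after the annotated start (dotted line, x axis in bases), 1 grey line per gene with a match. ERSE lies in 6 chaperone and folding genes, and CARE in 9 other genes, among them the ERAD gene Herpud1, which also holds ERSE-II.

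In LM8 the genes of the set were lower in the knock-down array nearly throughout. Of 37 genes 33 were below the control and 4 above it, whereas 46.0% of all kept genes were below and 53.8% above. The median difference was -0.19, beside 0.015 over all kept genes. At least 1.2-fold lower were 9 genes, or 24.3%, against 7.58% of all kept genes, and 0 were at least 1.2-fold higher, against 8.85%. At least 1.5-fold lower were 3 genes, or 8.11%, against 1.31%, and 0 were at least 1.5-fold higher, against 1.16%. Most differences were therefore small and of 1 sign, with a few larger ones among the ATF4 targets. The poly-A spike-in controls, which pass through labelling with the sample, read 0.14 higher after knock-down in LM8 (median of 27 probe sets), a shift of similar size and opposite sign, and its part in the result was not tested. The 3' minus 5' difference of the GAPDH control probe sets, a sign of RNA integrity, moved by -0.0018, and that of beta-actin by -0.0094.

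In A375M the same genes showed no such shift. Of 38 genes 19 were below the control, 9 above it and 10 identical, against 40.3%, 29.0% and 30.8% of all kept genes. The median difference was -0.0095, beside 0 over all kept genes. A single gene was at least 1.2-fold lower, or 2.63% against 4.67% of all kept genes, and 0 were 1.2-fold higher, against 3.21%. None was 1.5-fold lower or higher, beside 0.37% and 0.378% of all kept genes. After centring of each array on its median, 33 of the 38 were below the control, but so were 77.0% of all kept genes. Exact values also recurred across the A375M control array: 67.4% of all its probe sets shared their value with another, as did those of 13 of the 38 genes, against 13.1% of all probe sets in LM8. In A375M the 3' minus 5' difference moved by 0.011 for GAPDH and by 0.0845 for beta-actin. The latter is larger than the median difference of the set, and its part in the values was not tested.

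**Figure D2:**
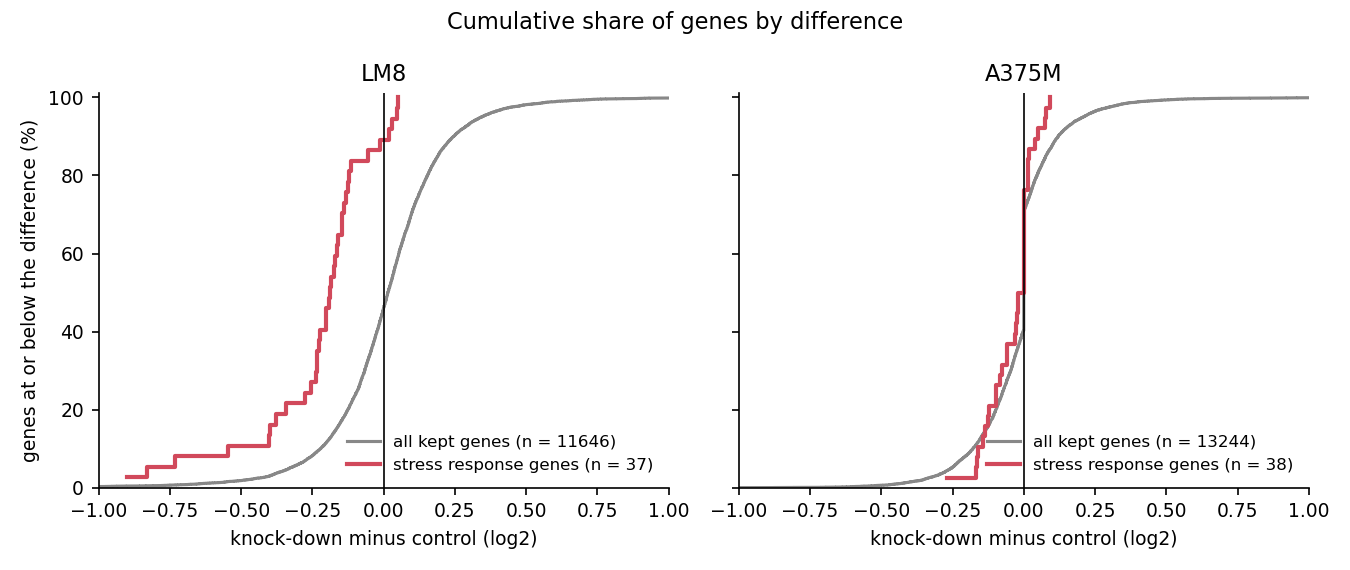
Cumulative share of genes (y axis, percent) at or below a given knock-down minus control difference (x axis, log2), for the stress response genes (red) and all kept genes (grey) in LM8 and A375M. The red curve lies left of the grey one in LM8, with 89.2% of genes below 0 against 46.0%, and follows it in A375M.

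The chaperones and folding enzymes of the ER, which hold and refold new secretory proteins, differed little in LM8. Their median was -0.13 over 12 genes, with 10 lower and 2 higher. The lower ones are 83.3%, against 46.0% of all kept genes. None was at least 1.2-fold different, which says little for 12 genes, as only 7.58% of all kept genes were that much lower and 8.85% higher. Hspa5, which encodes the central ER chaperone BiP, read 13.51 under control and 13.50 under knock-down, so they differed by -0.013. Its other probe sets were 0.035 and 0.20 higher, so BiP mRNA did not share the lower values of the set. The chaperone partners differed more than BiP itself. Hsp90b1, the ER form of HSP90, read 13.26 and 13.14, a difference of -0.11 with -0.36 on its other probe set. Calr, the lectin chaperone calreticulin, differed by -0.14, and all 3 of its probe sets were lower. Manf, a secreted ER stress protein, read 13.14 and 12.91, a difference of -0.23.

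Among the protein disulphide isomerases, which form and rearrange disulphide bonds, the members did not move alike. Pdia6 read 11.98 and 11.75, a difference of -0.23, and its other probe set differed by -0.30. Pdia3 differed by -0.056 and by 0.38 on its other, dimmer probe set, and Pdia4 by 0.047. Only Pdia6 of the 3 was thus lower on every kept probe set. Hyou1, a large chaperone of the HSP70 family, differed by 0.029. Its other kept probe set differed by -0.14. The co-chaperones Sdf2l1, Dnajb9 and Dnajc3 differed by -0.17, -0.15 and -0.14, and the ER-resident Creld2 by -0.13. Dnajc3 is uncertain, because its other 4 probe sets were higher, by up to 0.23.

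ERAD exports misfolded proteins to the proteasome, and its 3 listed genes were all lower in LM8, beside 46.0% of all kept genes. Edem1, which recognises trimmed glycans on misfolded proteins, read 10.32 and 10.04, a difference of -0.28, with 0.024 on its other probe set. Herpud1, an ER membrane scaffold, read 11.02 and 10.83, a difference of -0.19, and -0.25 on its other probe set. Sel1l, the adaptor of the HRD1 ubiquitin ligase, differed by -0.17, with a range of -0.46 to -0.13 over 4 kept probe sets. Over the 15 chaperone and ERAD genes together 13 were lower, or 86.7%, and the median was -0.14.

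The stress transcription factors divided into those that differed slightly and those that differed more in LM8. Xbp1 read 11.84 and 11.64, a difference of -0.20, and its 4 probe sets agreed closely, from -0.24 to -0.20. These probe sets were not assigned to the spliced or unspliced form. Atf4 read 13.48 and 13.30, a difference of -0.19, with -0.13 on its other kept probe set. ATF4 is controlled mainly through translation, so its mRNA is only part of its regulation. Cebpb, a partner of ATF4 on CARE sites, differed by -0.13, and Atf5, a related factor that is also controlled through translation, by 0.05.

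Ddit3, Atf3 and Nupr1 differed more, and are grouped here by the size of their differences. Ddit3, which encodes the pro-apoptotic factor CHOP, read 10.85 and 10.45, which is -0.40 or 1.32-fold lower. Its second probe set differed by -0.82. Atf3, a stress-induced repressor and activator, read 7.75 and 7.37, a difference of -0.38. Nupr1, a small chromatin protein of the stress response, had the largest difference of the set. It read 11.12 and 10.22, so 53.5% of its control level was left, a difference of -0.90 (1.87-fold). Its second probe set differed by -0.94. Nupr1 ranked 53 from the lowest among the 11646 kept genes.

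The amino acid genes of the ATF4 branch were all lower in LM8, 10 of 10 against 46.0% of all kept genes, with a median of -0.21. The enzymes of serine synthesis and of the folate cycle that uses serine differed by similar amounts. Phgdh, the first enzyme of serine synthesis, read 13.62 and 13.50, a difference of -0.12, and Psat1, the next enzyme, 13.04 and 12.80, a difference of -0.24. Shmt2 and Mthfd2, the mitochondrial enzymes that pass on carbon from serine, differed by -0.22 and -0.20. All 12 kept probe sets of these 4 genes were lower. Asns, the asparagine synthetase and a classic ATF4 target, read 13.16 and 12.97, a difference of -0.19, with -0.24 on its other probe set. Aldh18a1, which begins proline synthesis, read 12.21 and 11.97, a difference of -0.24, and its 5 probe sets were all lower. Pycr1 was not analysed here in LM8.

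Cth and Slc7a11 had the largest differences of the amino acid genes. Cth, which encodes cystathionine gamma-lyase, the last enzyme of cysteine synthesis, read 12.41 and 11.58, which is -0.83 or 1.78-fold lower. It was read by 1 probe set and ranked 61 from the lowest. Slc7a11, the cystine importer xCT, read 7.26 and 6.86, a difference of -0.40, with -0.62 on its other probe set. Cbs, the enzyme before Cth and no gene of the set, was 0.12 higher and is named here after its value was seen. Its readings of 5.98 and 6.10 are close to the array medians of 5.29 and 5.28. The xCT heavy chain Slc3a2, which is shared with other transporters, differed by -0.16. Slc7a5, the leucine importer that also pairs with that chain, read 12.44 and 12.26, a difference of -0.18.

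Among the other targets, Chac1, which degrades glutathione, read 10.31 and 9.57, so 60.3% was left, a difference of -0.73 (1.66-fold). It too had 1 probe set. Trib3, a pseudokinase that restrains ATF4 signalling, read 11.04 and 10.50, a difference of -0.55, with -0.48 on its other probe set. Ddit4, which encodes the mTORC1 inhibitor REDD1, read 11.99 and 11.65, a difference of -0.34. The secreted glycoprotein gene Stc2 differed by -0.25, and its 3 probe sets were all lower. Vldlr, a lipoprotein receptor gene, differed by 0.019 on the probe set used, while its 6 kept probe sets ranged from -0.37 to 0.097 and 4 of them were lower.

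**Figure D3:**
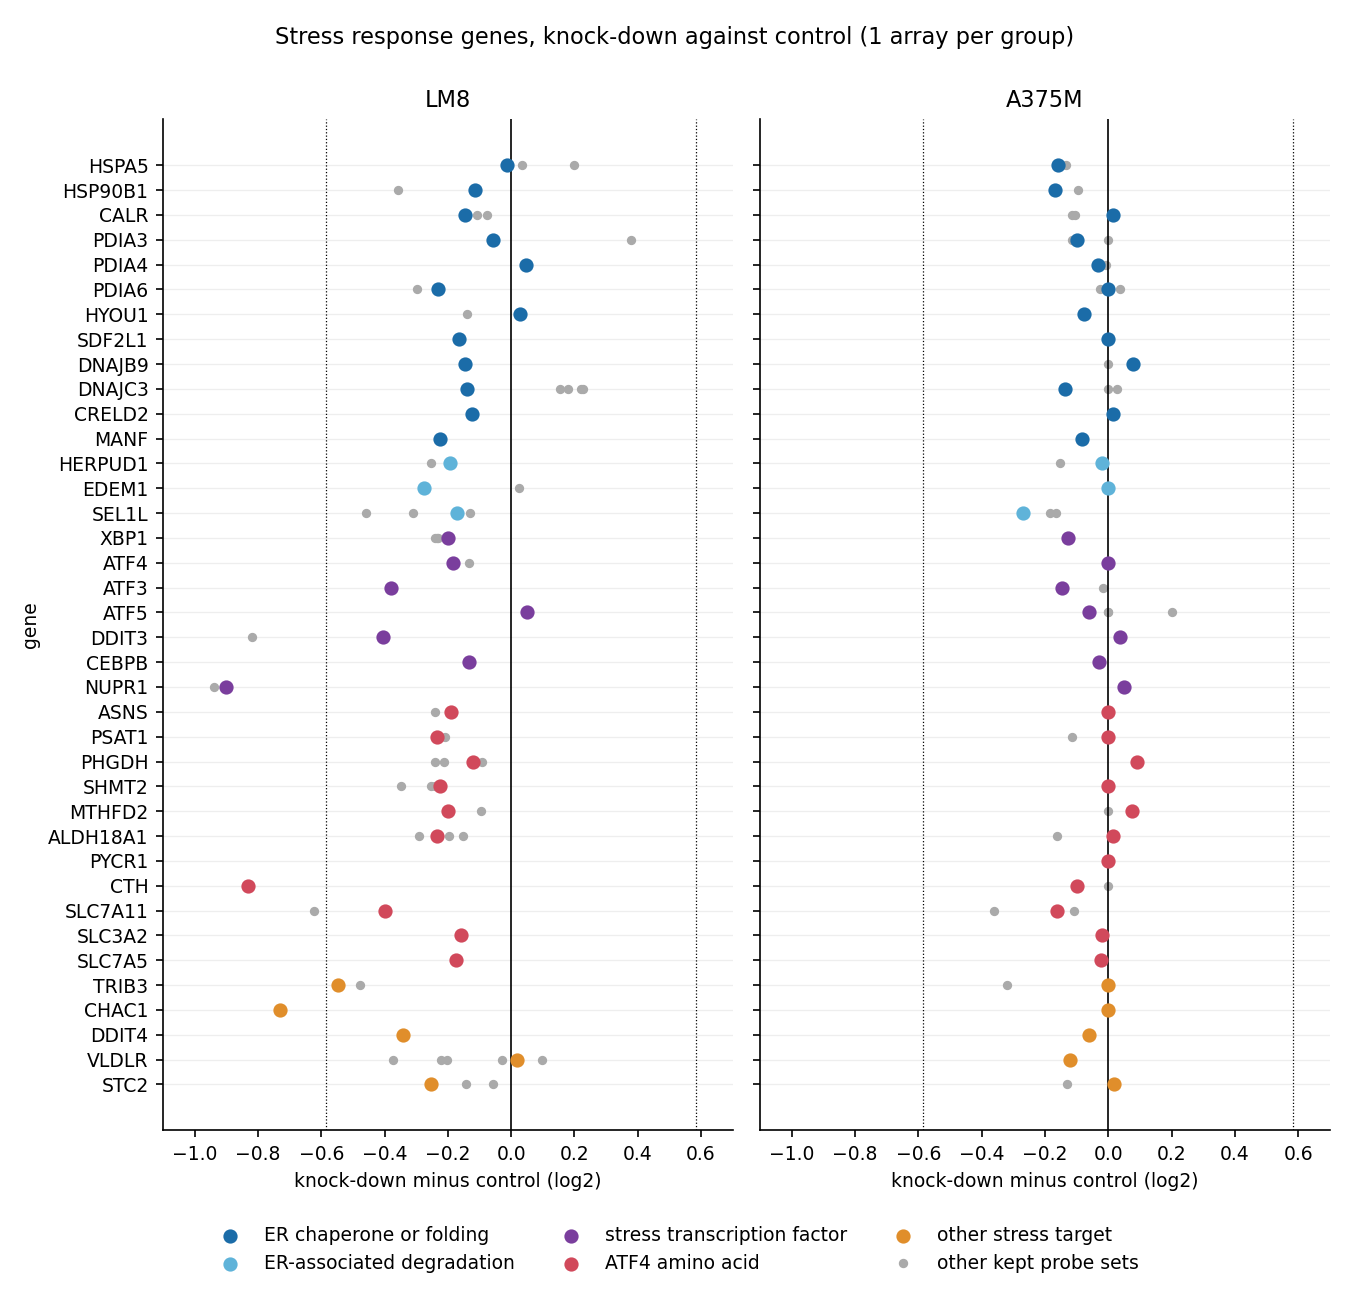
Knock-down minus control difference (x axis, log2) of each gene of the set (rows) in LM8 and A375M, coloured by role, with the gene's other kept probe sets in grey and dotted lines at 1.5-fold. In LM8 Nupr1, Cth and Chac1 lie beyond the 1.5-fold line at -0.90, -0.83 and -0.73, and in A375M no gene does.

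The other probe sets of the genes mostly had the same sign. Over all 83 kept probe sets of the 37 genes in LM8, 70 were lower and 13 higher, with a median of -0.20, beside 0.0068 over all kept probe sets. The lower ones are 84.3%, against 48.3% of all kept probe sets. Of 25 genes with several kept probe sets, 19 were lower on all of them, 6 had both signs and 0 were higher on all. When all probe sets of a gene were averaged, Hspa5, Pdia3 and Dnajc3 were no longer lower.

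In LM8 no gene of the set had a mean below 7, where 2909 of the kept genes lay, and all 3 between 7 and 9 were lower. All kept genes with a mean of 11 to 13 had a median of 0.016 and a 10th percentile of -0.15. Of the 15 stress genes in that range 13 were lower and 11 lay below that percentile. In the range of 9 to 11 the median of all genes was 0.023, and 9 of 11 stress genes were lower. Above 13, all 8 were lower, beside 43.8% of all genes. Removing a loess curve on mean level left the median of the set at -0.20 and the count of lower genes at 33.

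**Figure D4:**
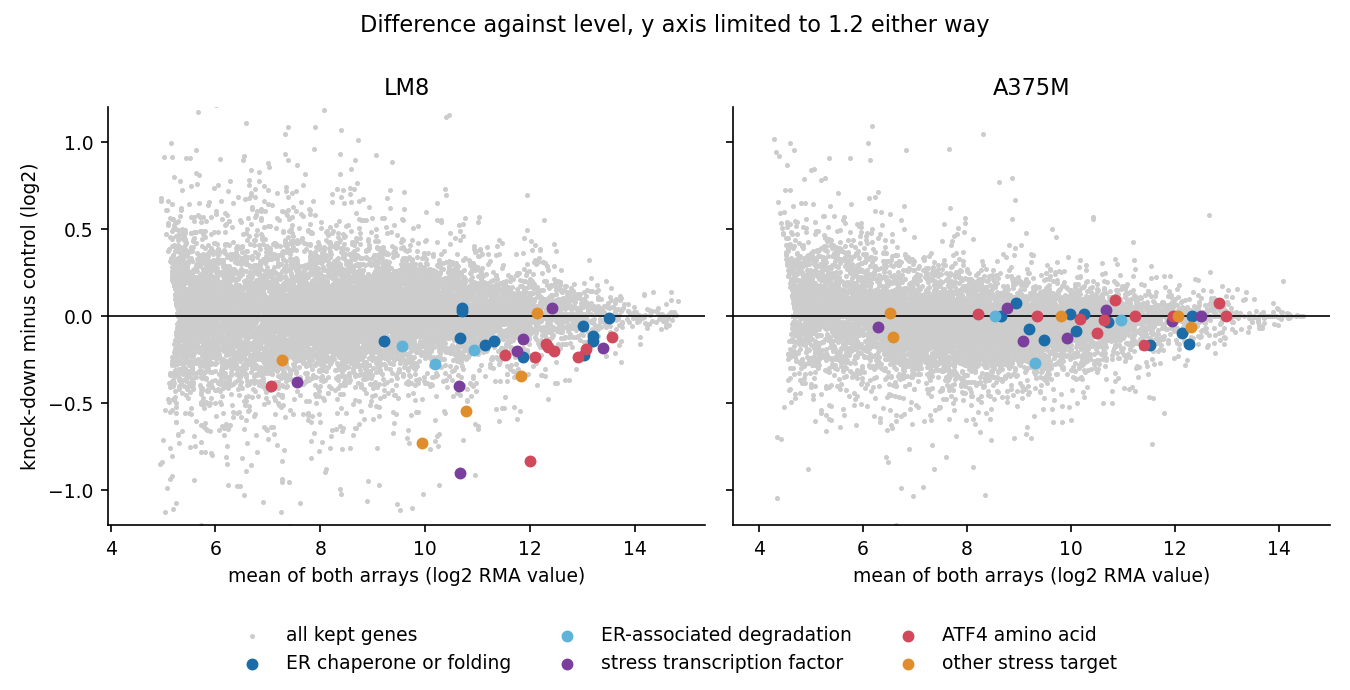
Difference (y axis, log2, limited to 1.2 either way) against the mean of both arrays (x axis, log2 RMA value) for all kept genes (grey) and the stress response genes (coloured by role). In LM8 33 of 37 coloured points lie below 0, none of the 37 at a mean below 7, and in A375M 19 of 38 do.

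The genes with and without promoter matches can be set side by side in LM8. All 9454 kept genes with a window had a median of 0.018, with 45.3% lower. The 6 genes with ERSE had a median of -0.13, with 6 lower, but Hspa5 and Dnajc3 among them were not lower with the mean of probe sets. The 8 genes with CARE and a value had a median of -0.39, with 7 lower. The 19 matched genes with neither had a median of -0.19, with 17 lower. Of the genes with a window, Nupr1, Chac1 and Trib3 differed most, and all 3 hold CARE, in Trib3 after the annotated start. Cth, which differed by -0.83, had no window, so its elements are unknown. Other genes with CARE differed less, with Asns at -0.19, Herpud1 at -0.19 and Vldlr at 0.019. Ddit3, at -0.40, held no match. Outside the set, the 9 kept genes with ERSE had a median of 0.050, with 3 lower. The 231 other kept genes with CARE had a median of 0.014, with 47.2% lower.

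In A375M the lowest value of the set was in the ER branch. SEL1L read 9.45 and 9.18, a difference of -0.27, and its 3 kept probe sets were all lower, the others by -0.18 and -0.17. HSPA5 read 12.35 and 12.19, a difference of -0.16, and its other probe set differed by -0.13. HSP90B1 read 11.59 and 11.42, a difference of -0.17, and DNAJC3 differed by -0.14, with -0.13, 0.028 and 0 on its other probe sets. BiP mRNA was thus slightly lower here and level in LM8. PDIA3 differed by -0.098, MANF by -0.083, HYOU1 by -0.076 and PDIA4 by -0.031. CALR differed by 0.013, but its other kept probe sets by -0.12 and -0.10, and its sign turned with the mean of probe sets (-0.069), with median centring (-0.017) and without marked probe sets. DNAJB9 was 0.078 higher, CRELD2 differed by 0.014, and PDIA6, SDF2L1 and EDEM1 were identical in both arrays. HERPUD1 differed by -0.02, with -0.15 on its other probe set and 0.0088 with repeated quantile normalization. The median of the 15 chaperone and ERAD genes was -0.031, with 9 lower, 3 higher and 3 identical.

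Most genes of the ATF4 branch differed little in A375M, with SLC7A11 and a second TRIB3 probe set as exceptions. ATF4 read 12.51 in both arrays, and DDIT3 read 10.65 and 10.68, a difference of 0.038. NUPR1, the gene with the largest difference in LM8, read 8.74 and 8.79, a difference of 0.049. CHAC1 read 9.80 and TRIB3 12.06 in both arrays, although the other TRIB3 probe set differed by -0.32. Of the 11 amino acid genes 4 were lower, 3 higher and 4 identical, with a median of 0. These are 36.4%, 27.3% and 36.4%, against 40.3%, 29.0% and 30.8% of all kept genes. ASNS read 12.97, PSAT1 11.96, SHMT2 11.22 and PYCR1 9.35 in both arrays, and the other PSAT1 probe set differed by -0.11. SLC7A11 read 11.48 and 11.32, a difference of -0.16, with its 3 probe sets between -0.36 and -0.11, and CTH read 10.54 and 10.44, a difference of -0.098 with 0 on its other probe set. In both lines the cystine importer was lower on every kept probe set, as were SLC3A2 and SLC7A5 on the 1 probe set each has, but with repeated quantile normalization these 2 turned to 0.028 and 0.016 in A375M.

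The remaining A375M values were small. PHGDH, MTHFD2 and ALDH18A1 differed by 0.091, 0.074 and 0.014, with -0.16 on the other ALDH18A1 probe set, and SLC3A2 and SLC7A5 by -0.019 and -0.024. XBP1 read 9.99 and 9.86, a difference of -0.13, and ATF3 9.14 and 8.99, a difference of -0.14. Both were thus slightly lower, as in LM8. CEBPB, ATF5 and DDIT4 differed by -0.028, -0.060 and -0.059. VLDLR differed by -0.12 and STC2 by 0.019, with -0.13 on its other probe set. One other ATF5 probe set was 0.20 higher. Over all 70 kept probe sets of the 38 genes, 37 were lower, 13 higher and 20 identical, with a median of -0.018. The lower ones are 52.9%, against 41.3% of all kept probe sets.

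The lines can be compared gene by gene, since they share no arrays. Of 37 genes kept in both, 15 were lower in both, or 40.5%, against 20.7% of 8996 genes kept in both. Of the same 37 genes, 33 were lower in LM8 and 19 in A375M, so a large overlap follows from these counts by themselves and shows no shared lowering. A further 9, or 24.3%, were lower in LM8 and higher in A375M, against 12.1% of all genes kept in both. Another 9 were lower in LM8 and identical in A375M, against 12.7%. The reverse, higher in LM8 and lower in A375M, held for 4, or 10.8%, against 23.9%, and 0 were higher in both, against 14.9%. Only 4 of the genes were higher in LM8 at all. These counts too are thus largely set by the totals of each line, and by themselves show no opposition between the lines. None was at least 1.2-fold lower in both, beside 0.4% of all genes. As a description across 37 genes, which are not independent replicates and share their arrays, Pearson's r between the lines was -0.15 and Spearman's rho -0.25, beside 0.033 and 0.0077 over all genes kept in both. Over the 10 amino acid genes r was 0.65 and rho 0.44, and over the 15 chaperone and ERAD genes -0.20 and -0.28. Among the 10, Cth and Slc7a11 were the lowest in both lines, and 3 others were identical in A375M. These coefficients rest on few genes with small A375M values, and whether the branches differ was not tested. Whether the difference between the lines exceeds that between cultures was not tested, and species, tumour type, medium, hairpin and array design cannot be told apart.

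**Figure D5:**
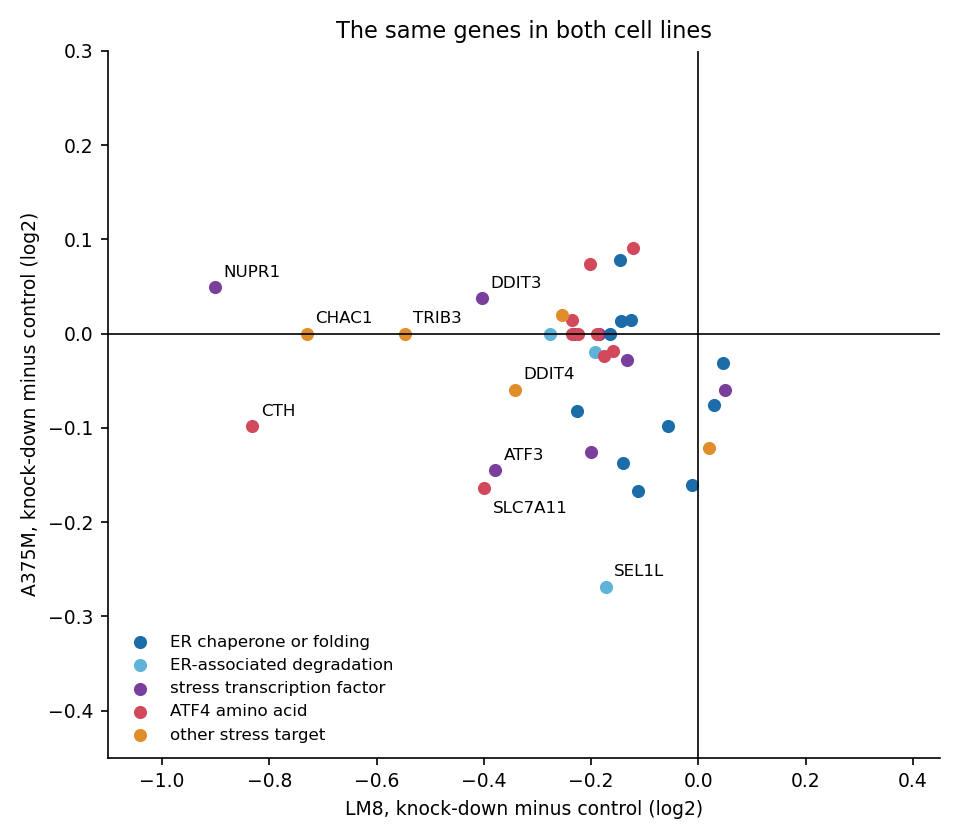
Knock-down minus control difference in LM8 (x axis, log2) against that in A375M (y axis, log2) for the 37 stress response genes kept in both lines, coloured by role. Nupr1, Cth and Chac1 lie far left at -0.90, -0.83 and -0.73 and near 0 in A375M, and SEL1L is lowest in A375M at -0.27.

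Other genes of the same pathways were read from a list of 98 chosen by function. In LM8 68 of 92 kept genes were lower, or 73.9% against 46.0% of all kept genes, with a median of -0.052. Past 1.2-fold, 10 of them were lower, or 10.9% against 7.58% of all kept genes, and 1 was higher, or 1.09% against 8.85%. The higher gene, singled out after its value was seen, was Eif2ak4, which encodes GCN2, at 0.28. In A375M 46 of 83 were lower, 21 higher and 16 identical, with a median of -0.019. These are 55.4%, 25.3% and 19.3%, against 40.3%, 29.0% and 30.8% of all kept genes.

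The other ATF4 targets in LM8 followed the amino acid genes, with 18 of 21 lower (85.7%, against 46.0% of all kept genes) and a median of -0.14. Sesn2, a nutrient sensor, differed by -0.59 but by 0.073 on its other kept probe set. Gpt2, a mitochondrial alanine transaminase, read 10.64 and 10.09, a difference of -0.54, and its 4 probe sets were all lower. The aminoacyl-tRNA synthetases, many of which are ATF4 targets, were lower in 15 of 17 cases (88.2%) by small amounts, with a median of -0.072. Their lowest values were in Wars (-0.23) and Lars (-0.20). In A375M 11 of 18 other ATF4 targets were lower (61.1%, against 40.3% of all kept genes), with a median of -0.086. The amino acid transporter gene SLC1A4 had the lowest value at -0.35, followed by the collagen receptor gene DDR2 at -0.26. The synthetases had a median of 0 over 15 genes, with KARS1 at 0.15 and CARS1 at -0.12.

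Of the sensors and translation controls, 12 of 16 were lower in LM8 (median -0.086) and 12 of 17 in A375M (median -0.055). These are 75.0% and 70.6%, against 46.0% and 40.3% of all kept genes. Ppp1r15a, which encodes GADD34, the phosphatase subunit that ends eIF2alpha phosphorylation, read 9.71 and 9.24 in LM8, a difference of -0.47. In A375M it read 9.51 and 9.24, a difference of -0.27, and -0.26 on its other probe set. It was thus at least 1.2-fold lower in both lines. The adaptor gene Nck1 differed by -0.33 in LM8, with 0.26 on another probe set, and CREBRF by -0.33 in A375M, with a range of -0.44 to 0 over 5 probe sets.

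ER folding and ERAD genes outside the set were split evenly in LM8, with 13 of 25 lower (52.0%, against 46.0% of all kept genes) and a median of -0.0066. The exception was Ero1a, the oxidase that recharges disulphide isomerases, which read 11.08 and 10.37, a difference of -0.71, and whose 3 probe sets ranged from -1.05 to -0.71. Txndc5 was 0.17 higher. In A375M 11 of 22 were lower, 3 higher and 8 identical, with DERL1 at -0.25 and DNAJC10 at -0.19, although their 4 probe sets each reached up to 0 and 0.16. Cytosolic and mitochondrial chaperones were lower in 10 of 13 cases in LM8 (76.9%), with a median of -0.043. The heat-inducible Hspa1a and Hspa1b differed by -0.42 and -0.31. Hspa1a read 5.96 and 5.54 on 1 probe set, close to the array medians of 5.29 and 5.28. In A375M 6 of 11 were lower (54.5%), with HSPB1 at -0.22 and HSPH1 at -0.16.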

How the data were processed

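The authors deposited 1 log2 value per probe set and array, obtained by RMA as the submitters' processing notes say, with no version named. RMA equalises the distributions of arrays, so it can hide a shift of all transcripts. The step behind the identical human values and the genome build are not stated. Groups came from sample titles.

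Probe sets were named through the supplied platform annotation, with older symbols matched by hand, and only those with exactly 1 symbol were used. The brightest represented its gene, and the gene was kept if it passed the 50th percentile of the non-control probe sets on either array of the line. Counts used 1.5-fold, and 1.2-fold and 2-fold were alternatives. Every gene of the set is reported, and of the other pathway lists the 2 kept genes with the largest difference per role and line are named. The set, its roles and the lists were chosen with earlier results of these data known. Promoter sequences are from RefSeq, GRCm38.p6. Scripts ran in Python 3.11.15 with pandas 2.3.3 and statsmodels 0.14.6 and were tested on simulated data.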

Additional observations from a re-analysis of the deposited data

Results flagged for a closer look

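For 3 genes the differences in LM8 and A375M had opposite signs and each exceeded the median SD between probe sets of a gene in its line, and the difference between lines was not tested. DNAJB9 differed by -0.15 in LM8 and 0.078 in A375M, PHGDH by -0.12 and 0.091, and MTHFD2 by -0.20 and 0.074. All 6 values are small. With median centring the A375M values of DNAJB9, PHGDH and MTHFD2 were 0.048, 0.061 and 0.044, all below the median SD of 0.071 there. With the mean of probe sets DNAJB9 (0.053) and MTHFD2 (0.037) fell below it too. The flag thus depends on the processing, although the A375M signs stayed the same. In A375M the other probe sets of DNAJB9 differed by 0.0805 and 0, and that of MTHFD2 by 0. In LM8 the 4 PHGDH probe sets ranged from -0.24 to -0.092, and the other MTHFD2 probe set differed by -0.096. The smallest of these LM8 values are below the median SD of 0.12 in size.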

How the results depend on the processing

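In LM8 the medians of the whole set, of the chaperone and ERAD genes and of the amino acid genes kept their sign and moved by less than the median SD between probe sets of a gene under all alternatives run, as did the count of lower genes within 1.5 times. The alternatives were no filter, a filter at the 70th percentile, median centring, repeated quantile normalization, loess removal, the mean of probe sets, exclusion of probe sets marked as shared between transcripts (names ending in _x_at or _s_at), 32 added before log2 and, chosen after seeing the data, exclusion of identical values. The count of LM8 genes past the threshold was 9 at 1.2-fold and 0 at 2-fold. In A375M the count of lower genes was 33 with median centring and 12 (of 25 kept) without marked probe sets. Of all kept genes 77.0% and 38.2% were then lower. A single gene, SEL1L, passed 1.2-fold. SEL1L fell short of 1.2-fold with repeated quantile normalization (-0.217), loess removal (-0.254), 32 added (-0.256) and the mean of probe sets (-0.1545). The median of the set turned to 0.0086 with quantile normalization and 0.0031 with loess removal, beside 0.019 and 0.0022 over all kept genes. It was -0.045 without identical values, -0.040 with median centring and -0.039 with the mean of probe sets. Over all kept genes these medians were -0.027, -0.030 and 0, so part of the movement was shared by all genes. The A375M median of the chaperone and ERAD genes, -0.031, ranged from -0.083 without marked probe sets and -0.079 without identical values to -0.0030 with quantile normalization. The causes were not tested. No paired analysis was possible because each group held 1 array. Low signal limits Atf3, Slc7a11 and Stc2 in LM8 and ATF5, VLDLR and STC2 in A375M, which read closest to background in the set. Outside the set, Hspa1a and Cbs in LM8 read lower still.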
